A study of Mus musculus with 8 samples.

Results

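The Myc locus is described here by the contacts it made in 8 in situ Hi-C libraries of activated mouse B cells, as the bin of 50 kb that holds the start of Myc and every bin within 3 Mb of it. These were 121 of the 48088 autosomal bins. Myc (ENSMUSG00000022346.15) lies on the plus strand of chromosome 15, from 61985391 to 61990374 in the GRCm38 assembly with GENCODE M21 genes, and its bin, chr15:61949547-61999847, held 138 fragments of the restriction enzyme MboI. The window, chr15:58950129-64999997, held the starts of 17 protein-coding genes, Myc among them. It also held Pvt1 (ENSMUSG00000097039.8), a long noncoding RNA gene at 62037986 to 62378096 that starts 53 kb downstream of Myc and covers the 8 bins from 50 to 400 kb downstream. In Hi-C, chromatin is crosslinked, cut and religated, so that a sequenced read pair joins 2 places that were close in the nucleus. Splenic B cells of male mice 6 to 12 weeks old, which per the study's methods had a C57BL/6 Pep3b background, were labelled with CellTrace Violet and given lipopolysaccharide (LPS, 25 μg/ml). Each of the 4 groups had 2 replicates, described as biological duplicates. At 3 h, at 10 h and at 33 h (imminent division), C57BL/6 cells were sorted as activated and undivided. Pre-S cells were sorted at 33 h from FUCCI mice, labelled C57BL/6 FUCCI, which carry reporters of the cell cycle phase, as undivided cells with the reporter colours of the phase before DNA synthesis. Pre-S therefore differed from the other groups in strain and in gate as well as in phase, and these cannot be told apart. Distances are given in steps of 50 kb between bins, with upstream meaning toward the chromosome start.

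Myc encodes a transcription factor that pairs with Max and drives growth, ribosome production and entry into the cell cycle. Activated B cells switch it on early, and its level sets how long they go on dividing. The gene sits almost alone in a long stretch without other protein-coding genes, next to Pvt1, whose body and promoter have been described as regulators of Myc, and its control elements lie far away, among them an enhancer cluster that serves blood cells far downstream. Contacts between such elements and a promoter form mostly within a topologically associating domain (TAD), a stretch whose parts meet each other more than they meet its neighbours. TAD borders often hold sites of CTCF, a DNA-binding protein that halts the loop-extruding cohesin complex, and a pair of sites that point toward each other is the arrangement known to hold a loop. On a larger scale, chromatin splits into an active A and an inactive B compartment.

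The window held 7 matches to the core of the CTCF motif, searched on both strands in the genome sequence, in 7 of its 121 bins (5.79%), against 11.4% of all autosomal bins. Of these, 3 lay on the plus strand and 4 on the minus strand. A pair is shown because the stretch between them holds Myc, Pvt1 and the strongest distant partners of Myc. Capitals mark the match, with 8 bases of flank, each written 5′ to 3′ on the strand of the match.
Myc bin, plus strand, chr15:61983431-61983444: ctctgtggCCAGTAGAGGGCACacttactt
bin 1800 kb downstream, minus strand, chr15:63771779-63771792: aattgtcgCCAGCAGATGGCAGcattgtcc
The first lay 2 kb upstream of the Myc start, between genes, and the second 1786 kb downstream of it, in a bin with no protein-coding gene start. No other match lay between them, and the 5 other matches were all more than 1800 kb upstream of Myc. A match is a description of the letters, and binding was not measured.

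The libraries held 88703088 to 218945191 read pairs, of which 70.9% to 75.1% of the autosomal ones joined bins of the same chromosome. The Myc bin had 3167 to 8043 contacts in the window, which was 86.2% to 88.6% of its contacts on chromosome 15. In 7 libraries 2.39% to 2.84% of read ends lay on X and 0.0804% to 0.123% on Y, while the second imminent division library had 3.74% and 0.0490%. The shares of this library, which is 1 of the 2 of its group, go against the study's statement that the mice were male, and the reason was not tested. Calls in the window, in the domain and Pvt1 defined below, in the gene lists and at the named features were also computed without it. The pre-S libraries carried a rearranged chromosome 15 on both sides of the window. Contacts joining 57.5 to 58.0 Mb with 70.25 to 70.75 Mb were 22 to 65 in the other 6 libraries and 1018 and 793 in the pre-S libraries. Contacts of 56.5 to 56.75 Mb with 58.0 to 58.5 Mb were 51 to 103 and then 995 and 857, and those of 69.5 to 69.75 Mb with itself fell from between 2615 and 6561 to 437 and 358. The Myc window lay between these points. Pre-S values are therefore set apart at the end, and 3 h, 10 h and imminent division, which share a strain and a gate, carry the main account.

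At every stage the Myc bin met a few places far more often than bins at the same separation on chromosome 15 usually met. The observed over expected contact, the count of a bin pair over the mean count of all bin pairs of the chromosome at that separation in the same library, was highest over the stretch from 1600 to 1750 kb downstream and at 550 kb upstream. These were the 5 highest partners beyond 100 kb by the mean of the 3 h, 10 h and imminent division groups. None of their bins holds a protein-coding gene start, and the downstream ones fall where the blood enhancer cluster is known to lie. These values carry no test of their own. The libraries are of bulk cells, so a contact lost in all cells and one lost in some of them cannot be told apart. The bin at 1650 kb (chr15:63600054-63650251) had an observed over expected contact of 26.3 and 19.7 in the 3 h libraries, 20.5 and 21 at 10 h, and 15.2 and 12.3 at imminent division, from raw counts of 91, 134, 101, 136, 116 and 113. Both imminent division libraries were below the 4 earlier ones, and the 3 h and 10 h libraries overlapped. The bin at 1700 kb (chr15:63650248-63700021) had 20.5, 18.8, 21, 18, 13.7 and 17.9 in the same order. Here too both imminent division libraries were lowest, with the second close to the lower 10 h library.

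**Figure D1:**
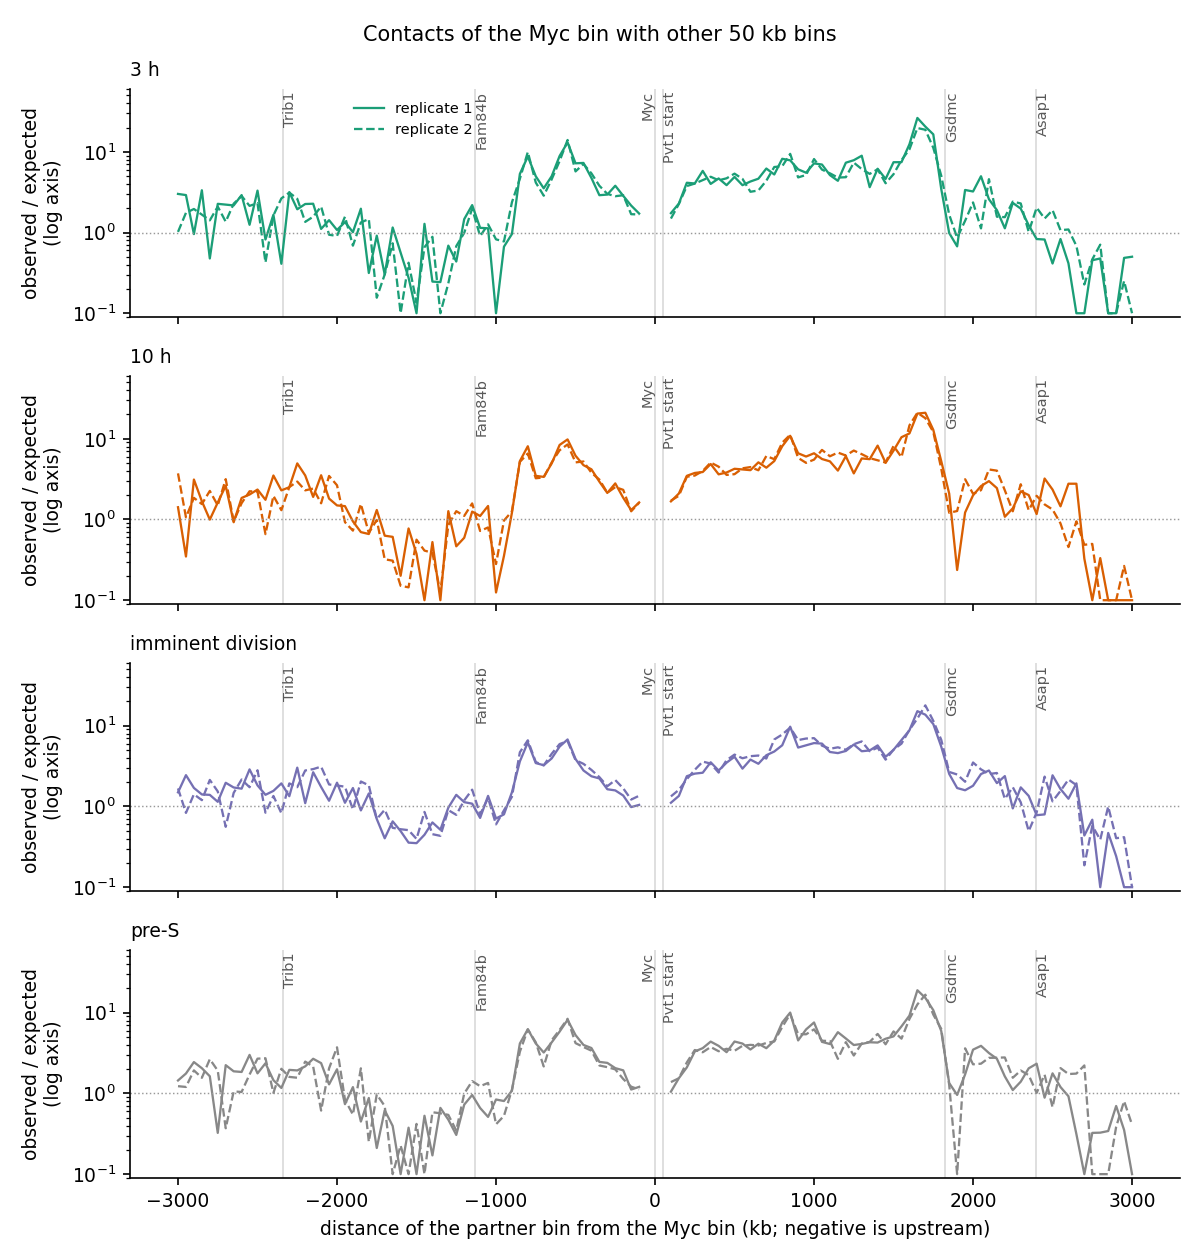
Observed over expected contact of the Myc bin with every 50 kb bin from 100 kb to 3 Mb away (log axis, values under 0.1 drawn at 0.1), by distance in kb, 1 panel a group and 1 line a replicate. In all 4 groups the lines are high at 550 kb upstream and between 1600 and 1750 kb downstream and drop at 1800 to 1900 kb.

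At 550 kb upstream (chr15:61400512-61450032) the observed over expected contact was 13.1 and 14 at 3 h, 9.82 and 8.51 at 10 h, and 6.76 and 6.44 at imminent division, with raw counts of 139, 285, 146, 168, 193 and 215. The 3 groups did not overlap and lay in the order of time, though neither step passed the test given below. At 1600 kb (chr15:63550048-63600057) the values were 12.4, 10.7, 11.6, 14.7, 8.79 and 8.88, again lowest in both imminent division libraries. At 1750 kb (chr15:63700018-63750523) they were 16.5, 11.2, 12.9, 12.2, 10.5 and 11.5, and the second imminent division library lay above the second 3 h library.

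Just past these partners the contact dropped steeply. The bin at 1800 kb, which holds the second CTCF match shown above, had 3.47 and 5.06 at 3 h, 5.29 and 4.26 at 10 h and 5.51 and 6.70 at imminent division. Both imminent division libraries were the highest of the 6. The bin at 1850 kb, where Gsdmc and Gsdmc2 start (genes of the gasdermin family of pore-forming proteins), had 0.986, 1.67, 2.09, 1.21, 2.53 and 2.68, with the same order. The fall across 1 bin, from 1750 to 1800 kb, was thus present at each stage, while the values on its far side were higher at imminent division than before.

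**Figure D2:**
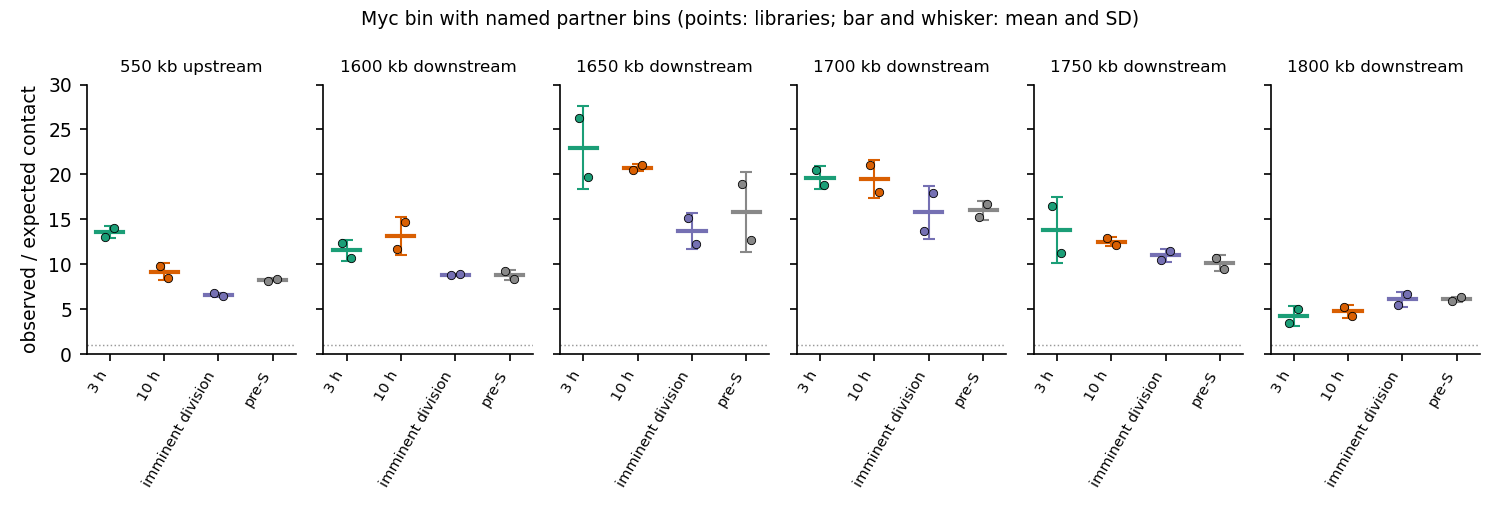
Observed over expected contact of the Myc bin with 6 partner bins (1 panel each, from 0), by group. Points are libraries, and the bar and whisker are the mean and SD of 2. The imminent division points are below the 3 h and 10 h points at 550 kb upstream and at 1600, 1650 and 1700 kb downstream, and above them at 1800 kb.

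Differential interactions (DIs), bin pairs whose counts differed between groups at a false discovery rate of 5% over all 1459358 bin pairs tested, were sought with edgeR's quasi-likelihood test. Its offsets are fitted on abundance, so a change is relative to the typical bin pair of like abundance and not to bin pairs at like distance. Of the 120 partners of the Myc bin, 88 passed the filter on low counts. An alternative test over chromosome 15 alone, given below, had a looser filter. It took every bin pair with a summed count of at least 10, among them 115 partners of Myc. From 3 h to 10 h, 0 of the 88 were called by edgeR and 0 by DESeq2, with 13 and 6 at an unadjusted p under 0.05. All called bin pairs of the genome made up 0.000617% of those tested in this comparison. The partner at 550 kb upstream had the change named above, -0.53 on the log2 scale (SE 0.119, adjusted p = 0.218), and was called only when the offsets were fitted per distance class (-0.61, adjusted p = 0.0326).

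From 10 h to imminent division, 62 of the 88 tested partners of Myc had a lower fitted value, with a median log2 change of -0.21 against 0.03 over all bin pairs tested. This shift depended on the offsets. With offsets per distance class 44 of the 88 were lower and the median was -0.03, against 0.02 over all, while the median was -0.33 with TMM factors and -0.42 with bin coverage in the offsets. A single partner was called, with 21 at an unadjusted p under 0.05. It lies 450 kb upstream and its raw counts were 98 and 182 at 3 h, 90 and 129 at 10 h, and 100 and 143 at imminent division. The fitted contact fell by 0.53 on the log2 scale (SE 0.147, adjusted p = 0.0267). All weaker bin pairs made up 1.32% of those tested and all stronger ones 0.69%. The call did not pass without the first 10 h library (adjusted p = 0.0758), the second (0.384) or the first imminent division library (0.244), nor with offsets per distance class (0.126) or in a test over chromosome 15 alone (0.248).

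The partners at 1600 to 1750 kb were not among the calls. Their fitted log2 changes from 10 h to imminent division were -0.30 at 1600 kb (adjusted p = 0.415), -0.30 at 1650 kb (SE 0.147, adjusted p = 0.299), 0.02 at 1700 kb (adjusted p = 0.970) and 0.07 at 1750 kb (adjusted p = 0.893). Single libraries moved these values. At 1600 kb the change was -0.46 without the first 10 h library and -0.11 without the second, at 1650 kb -0.47 without the first imminent division library and -0.09 without the second, and at 1700 kb leaving out 1 library gave -0.13 to 0.16, so that the sign was not settled. Which side of the threshold the bin at 1650 kb fell on depended on the scaling of the libraries. It was called with TMM factors (-0.82, adjusted p = 5.98e-05), with DESeq2 (-0.81, adjusted p = 0.0111) and with bin coverage added to the offsets (-0.49, adjusted p = 0.0418). With TMM factors the bin at 1600 kb was called as well (-0.76, adjusted p = 0.00347), and the bin at 1700 kb was called with the other sign (-0.49, adjusted p = 0.0405). Beyond the border, the bin at 1800 kb had a log2 change of 0.53 (adjusted p = 0.306).

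Over groups of neighbouring bins a pooled observed over expected contact was taken, as summed counts over summed expected counts. It gives the nearer pairs more weight and carries no test. On this measure the upstream partners of Myc were lower by 10 h. Those over Pvt1 and from 1400 to 1750 kb downstream were lower mainly at imminent division. With the 7 bins from 550 to 850 kb upstream, the pooled contact of the Myc bin was 7.38 and 7.15 at 3 h. It was 6.38 and 5.75 at 10 h and 4.80 and 5.06 at imminent division. With the bins 50 to 500 kb upstream it was 2.63 and 2.39, then 2.04 and 1.96, then 1.41 and 1.69. On this upstream side the 3 groups did not overlap. With the 8 Pvt1 bins the values were 2.59, 2.33, 2.31, 2.30, 1.71 and 1.91, so that 3 h and 10 h lay close and both imminent division libraries below them. With the 8 bins from 1400 to 1750 kb downstream, which take in the partners at 1600 to 1750 kb and 4 bins of lower contact before them, the group means were 11.2 ± 1.46 at 3 h, 11.4 ± 0.617 at 10 h and 8.49 ± 0.0784 at imminent division (SD, n = 2), again with the last group below all 4 earlier libraries. This stretch stops at 1750 kb, where the contact of Myc dropped in these same libraries. The bins left out, at 1800, 1850 and 1900 kb, had group means of 4.78, 1.65 and 0.755 at 10 h. At imminent division their means were 6.10, 2.60 and 2.09. With the bins between the 1400 to 1750 kb stretch and Pvt1, 450 to 1350 kb downstream, the values were 5.60 and 5.39, 5.35 and 5.65, and 4.74 and 5.38, and the higher imminent division value lay between those of the 10 h libraries. The contact of Pvt1 itself with the bins from 1400 to 1750 kb had means of 6.60 ± 0.182 at 3 h, 5.30 ± 0.133 at 10 h and 3.92 ± 0.222 at imminent division, without overlap. None of these 64 pairs was called from 3 h to 10 h, where 56 were lower and the median log2 change was -0.33.

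Over the window, 5201 bin pairs were tested. From 3 h to 10 h none was called by edgeR, with 450 at an unadjusted p under 0.05, and DESeq2 called none either. From 10 h to imminent division 108 became weaker and 14 stronger. Of the bin pairs tested in the window, 2.08% were weaker, against the 1.32% of all bin pairs given above. With offsets per distance class both shares were close, at 0.692% and 0.635%. They were 1.06% and 0.564% with DESeq2, 5.77% and 2.58% with TMM factors and 6.96% and 2.63% with bin coverage in the offsets. Among the more abundant bin pairs, over 8-fold the interchromosomal background, they were 6.07% and 3.50%. The stretch between 850 kb upstream and 1750 kb downstream, called the Myc domain below from the dips in the contact map of these same libraries, held 66 of the 108 weaker pairs and 1 of the 14 stronger pairs, among 1378 tested (4.79% weaker). Its median log2 change was -0.19, and 995 of its bin pairs were lower. With offsets per distance class, 16 of its pairs were weaker and 9 stronger, with a median of -0.05. It held 24 weaker pairs with DESeq2, 140 with TMM factors and 248 with bin coverage, to be read against the shares of all bin pairs just given for each setting. The domain's weaker pairs became fewer when any 1 of the 10 h and imminent division libraries was left out. Calls over all bin pairs became fewer as well. Upstream of the domain 20 of 720 were weaker and 6 stronger, and downstream 4 of 226 were weaker and 1 stronger.

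Pvt1 had an end in 50 of the 108 weaker pairs. Of the 643 tested pairs with an end in the 8 Pvt1 bins these 50 were 7.78%, against 1.32% of all bin pairs. None became stronger, 488 were lower and the median was -0.27. Among the 64 pairs that join Pvt1 with the bins 1400 to 1750 kb downstream of Myc, 13 became weaker (20.3%), 56 were lower and the median log2 change was -0.60. With offsets per distance class these counts fell to 12 of 643 and 2 of 64, with medians of -0.15 and -0.28, and with DESeq2 to 15 and 0. They were 72 and 16 with TMM factors and 155 and 28 with bin coverage. Of all bin pairs, 0.635% were weaker with offsets per distance class, 0.564% with DESeq2, 2.58% with TMM factors and 2.63% with bin coverage. Abundant bin pairs were called more often, and of all those over 8-fold the interchromosomal background 3.50% were weaker. The share of Pvt1 under that filter is not given here. The calls with an end in Pvt1 became fewer when any 1 of the 10 h and imminent division libraries was left out. Calls over all bin pairs did too. The 8 pairs of the Myc bin with those same bins held no call, with 6 lower and a median of -0.30. The 8 pairs of Myc with Pvt1 held no call either, though all 8 were lower, with a median of -0.31. Other scalings did call some of them. The pairs of Myc with the 8 bins from 1400 to 1750 kb held 4 calls with TMM factors, 1 with DESeq2 and 1 with bin coverage, and those of Myc with Pvt1 held 4, 1 and 5, all weaker. Neighbouring bin pairs share ends and libraries, so these counts are not counts of independent events. No test compared Pvt1 with Myc, and which was called more often depended on the scaling. For the bins from 1400 to 1750 kb, TMM factors called 4 of 8 pairs of Myc and 16 of 64 of Pvt1. Bin coverage called 1 and 28, and DESeq2 1 and 0. The offsets of the main fit were split at a separation of 1.5 Mb. The Myc pairs with the bins from 1500 kb on lay at or past this split, while Pvt1 lies nearer to those bins. The part of the split in the difference was not tested.

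By separation, the window's weaker pairs lay mainly under 1.5 Mb. The offsets of the main fit were split at this same separation, and the share of all bin pairs called weaker also fell there. The part of the split in this pattern was not tested. Of the pairs 50 to 500 kb apart, 27 of 1150 were weaker (2.35%, against 1.24% of all tested bin pairs at that separation). The numbers were 42 of 920 from 550 kb to 1 Mb (4.57% against 2.01%) and 23 of 624 from 1.05 to 1.5 Mb (3.69% against 1.99%). Further out, 7 of 1422 were weaker from 1.55 to 3 Mb (0.492% against 0.253%) and 9 of 1085 from 3.05 to 6 Mb (0.829% against 0.282%).

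**Figure D3:**
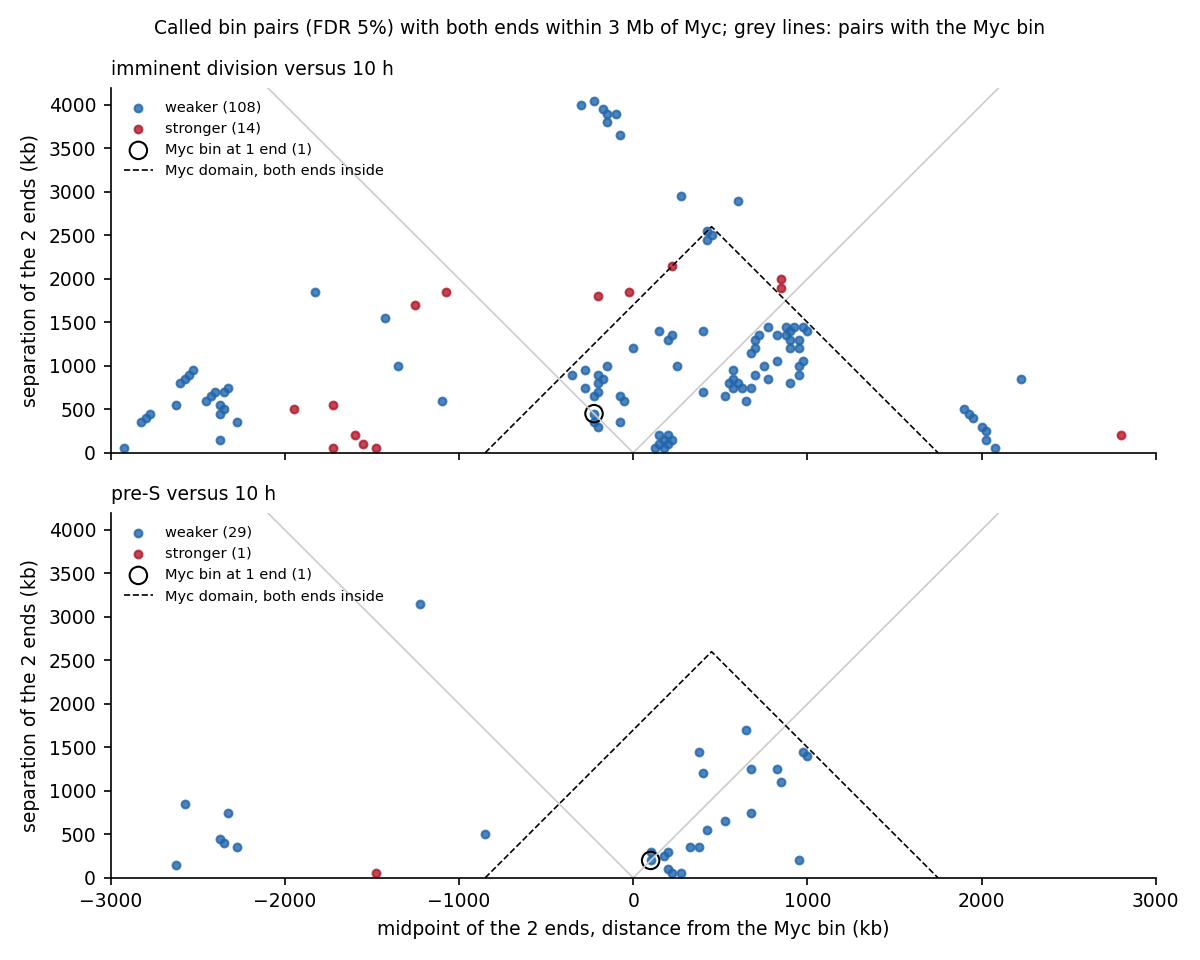
Bin pairs of the window called at an FDR of 5%, by the midpoint of their ends (kb from the Myc bin) and the separation of the ends (kb), for imminent division versus 10 h (108 weaker, 14 stronger) and pre-S versus 10 h (29 weaker, 1 stronger). The dashed triangle encloses pairs with both ends in the Myc domain, where most blue (weaker) points lie, and circles mark pairs with the Myc bin at 1 end.

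The weakened pair with the smallest p joined the bin 300 kb downstream of Myc, within Pvt1 (chr15:62249860-62299790), with the bin at 1600 kb (chr15:63550048-63600057). Its raw counts were 35 and 65 at 3 h, 39 and 60 at 10 h, and 34 and 40 at imminent division, and its observed over expected contact was 8.03, 7.63, 6.18, 7.30, 3.29 and 3.28. The earlier 4 libraries were all above 6 and both imminent division libraries at about 3.3, a log2 change of -1.26 from 10 h (SE 0.230, adjusted p = 0.000151). Another joined the bin 200 kb downstream, also in Pvt1, with the bin at 1550 kb. It had 21, 42, 31, 41, 26 and 22 read pairs and an observed over expected contact of 5.11, 5.09, 5.25, 5.13, 2.68 and 1.9, a log2 change of -1.45 (SE 0.274, adjusted p = 0.000286). The remaining one of the 3 pairs with the smallest p joined the same bin of Pvt1 with the bin at 850 kb. There the contact was 7.48, 8.06, 10.3, 6.53, 3.64 and 4.99, with a log2 change of -0.80 (SE 0.149, adjusted p = 0.000221). It rested on the first 10 h library, without which the change was -0.53 and the adjusted p 0.196, and the pair named first rested on the second 10 h library (adjusted p = 0.0799 without it).

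The pair with the smallest p among the stronger ones joined the bin 100 kb upstream of Myc with the bin at 1800 kb. Its read pairs numbered 15 and 36 at 3 h, 13 and 21 at 10 h and 43 and 56 at imminent division, and its observed over expected contact was 5.05, 6.19, 3.08, 3.82, 6.61 and 7.34. The 10 h libraries were lowest and imminent division highest, with a log2 change of 1.13 from 10 h (SE 0.281, adjusted p = 0.0111), but the call was lost without either 10 h library (adjusted p = 0.156 and 0.126) or the second imminent division library (0.0752), with TMM factors (0.104) and over chromosome 15 alone (0.0665). More widely, the 53 tested pairs of the bin at 1800 kb with the Myc domain had a median log2 change of -0.32 from 3 h to 10 h, with 43 lower and none called, and of 0.30 from 10 h to imminent division, with 8 lower and 1 called stronger. That median ranged from 0.10 with bin coverage to 0.34 with offsets per distance class among the processing alternatives. The other stronger pairs named by rank lay upstream, between bins 1700 and 1500 kb upstream (0.78, adjusted p = 0.0131, which was 0.577 with the second 10 h library left out and 0.129 with the first imminent division library left out) and between the bin 950 kb upstream and the bin 900 kb downstream (2.15, adjusted p = 0.0145, from 0 and 6 read pairs at 10 h and 12 and 25 at imminent division). The second of these had an adjusted p of 0.321 without the first 10 h library and 0.229 without the second imminent division library. Leaving out 1 library moved the log2 change of the first from 0.40 to 1.17, without the second and the first 10 h library. That of the second was 1.33 without the first 10 h library and 6.78 without the other, which leaves a lone 10 h library with 0 read pairs, so that its size is no estimate of a fold. Over chromosome 15 alone both missed the threshold (0.0735 and 0.0648), as did the first with bin coverage in the offsets (0.146). The 122 calls in the window became fewer when any 1 of the 10 h and imminent division libraries was left out. Calls over all bin pairs became fewer as well. The median log2 change of the window, -0.10 with all libraries, was -0.11 and -0.09 without the first and second 10 h library. It was -0.05 and -0.16 without the first and second imminent division library.

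For the Myc domain as a whole the pooled observed over expected contact was 2.53 and 2.51 at 3 h and 2.30 and 2.30 at 10 h. It was 1.9 and 2.08 at imminent division. The groups did not overlap, but these values carry no test. From 3 h to 10 h none of the domain's 1378 pairs was called, with 1011 lower and a median log2 change of -0.16, and the median of -0.19 for the next step was -0.05 with offsets per distance class. The block upstream of it stood at 1.36, 1.37 and 1.29 as group means, the block downstream at 1.24, 1.26 and 1.16, contact across the upstream border at 1.37, 1.48 and 1.48, and contact across the downstream border at 0.974, 1.02 and 0.999. The Myc bin's own contacts in the window were also divided by where they lay. The share that lay 50 to 500 kb upstream was 25.8% and 25.4% at 3 h, 22.3% and 21.4% at 10 h and 19.6% and 21.2% at imminent division. The share from 450 to 1350 kb downstream was 21.3% and 21.9%, then 22.8% and 24.9%, then 27.3% and 27.5%. The first was lower and the second higher at imminent division than at 3 h, with no overlap between those groups and no test made. The share from 1400 to 1750 kb was 9.93% and 9.0%, 10.8% and 10.4%, and 9.17% and 8.24%. The share 550 to 850 kb upstream had group means of 12.4%, 11.4% and 11.9%, and that over Pvt1 23.3%, 23.3% and 22.0%. The shares furthest out had group means of 5.05%, 5.67% and 6.05% beyond 850 kb upstream and of 2.71%, 3.33% and 3.57% from 1800 kb to 3 Mb downstream.

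Insulation was measured as the log2 of the mean contact between the 10 bins upstream and the 10 bins downstream of a bin, over the mean of the chromosome, so that a low score marks a border and a high score contact across the bin. It was tested with limma. The Myc bin had scores above 0 in each library, of 0.91 and 0.91 at 3 h, 0.77 and 0.75 at 10 h and 0.35 and 0.43 at imminent division. Contact across Myc was highest at 3 h and lowest at imminent division, with no overlap. Within the domain Myc nonetheless sat in a dip, below both neighbouring bins in all 8 libraries. The bin 300 kb upstream had group means of 1.88, 1.65 and 1.34, and the bin 450 kb downstream 1.91, 1.89 and 1.55, at 3 h, 10 h and imminent division. The change from 10 h to imminent division was -0.37 (SE 0.0534, adjusted p = 0.00057), while the median of all 46551 bins rose by 0.12. When the scores were brought to the same distribution in every library, in spread as well as in median, the change at Myc was -0.23 (adjusted p = 0.00353). The change from 3 h to 10 h was -0.15 and did not pass (adjusted p = 0.257).

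Myc was part of a run of 30 neighbouring bins, from 350 kb upstream to 1100 kb downstream and over all of Pvt1, whose scores all fell from 10 h to imminent division (median -0.34, and -0.46 at 100 kb upstream). In the window as a whole 55 of 121 bins fell and 26 rose, against 20.9% and 44% of all bins. Scores of neighbouring bins share most of their contacts, so counts of bins are not counts of independent events. Between 3 h and 10 h the percent of all bins called was 0, and none was called in the window, with 49 at an unadjusted p under 0.05 by limma, the one tool run on these scores. Bins of the window were called, however, when counts were first divided by bin coverage and when the first 3 h library was left out.

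The edges of the domain were drawn from dips in these same libraries, so that dips lie there is no separate result. Upstream the score was lowest among its neighbours at 850 kb in each library, with -0.84, -0.97, -1.0, -0.96, -0.66 and -0.65 in the 3 h, 10 h and imminent division libraries. Imminent division was the least deep, and the rise from 10 h was 0.33 (adjusted p = 0.00152). It was 0.02 (adjusted p = 0.862) when the scores were brought to the same distribution and 0.01 (adjusted p = 0.878) when counts were first divided by bin coverage. Downstream the dip lay at the bin at 1800 kb, that of the second CTCF match, with -0.72, -0.88, -0.82, -0.77, -1.0 and -0.93. Here imminent division was the deepest, and the change was -0.17 (adjusted p = 0.0480), a call lost with squares of 5 bins (0.149), with the replicate block (0.0753), without either or both pre-S libraries (0.0673) and without any 1 of the 10 h and imminent division libraries (0.0575 to 0.214). The upstream dip held no match to the CTCF motif.

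**Figure D4:**
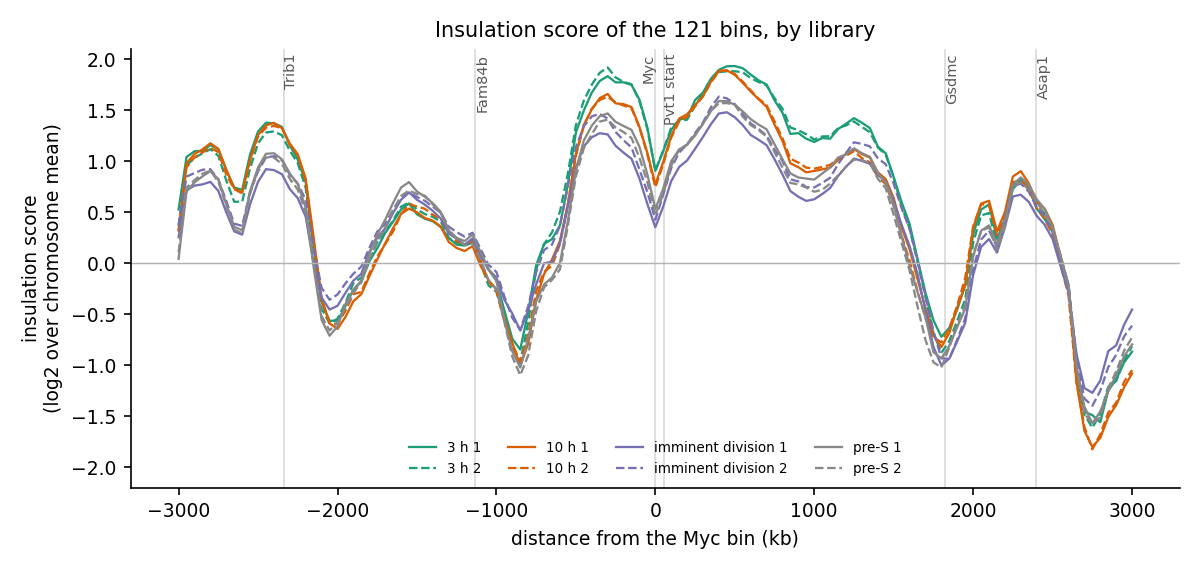
Insulation score (log2 of mean contact across a bin over the chromosome mean) of the window's bins by distance from the Myc bin in kb, 1 line a library. All lines dip at Myc within the domain, and the imminent division lines are lowest over Myc and highest at the dip 850 kb upstream.

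The boundary ratio, the log2 of contacts within 1 Mb upstream over those within 1 Mb downstream of a 100 kb region, was tested with edgeR against a fold of 1.1. It already differed between 3 h and 10 h at Myc and at the edges of the domain. Between 3 h and 10 h, 4 of the window's 61 regions were called, against 0.39% of all 23569 regions. The Myc region, with 0.36 and 0.36 at 3 h and 0.09 and 0.04 at 10 h, went from leaning upstream to nearly even (-0.29, adjusted p = 0.0235) and stayed there at imminent division, at 0.02 and 0.00. That call did not hold without any 1 of the 3 h and 10 h libraries (adjusted p = 0.0526, 0.204, 0.0578 and 0.340). The region 800 kb upstream went from -1.47 and -1.49 to -1.08 and -1.05 (0.41, adjusted p = 0.00204) and lay at -0.82 and -0.95 at imminent division. The region 1700 kb downstream went from 1.38 and 1.49 to 1.1 and 1.04 (-0.38, adjusted p = 0.00405), and the region at 1800 kb from 1.06 and 1.07 to 0.69 and 0.49 (-0.49, adjusted p = 0.000156). The number called was 1 when the second 3 h library was left out, and 0 when the second 10 h library was. With flanks of 500 kb the calls at Myc (adjusted p = 0.650), 1700 kb (0.319) and 1800 kb (0.133) were lost.

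The downstream edge then turned back. At imminent division the region at 1700 kb stood at 1.41 and 1.5, up by 0.39 from 10 h (adjusted p = 1.07e-05), and the region at 1800 kb at 1.05 and 1.21, up by 0.56 (adjusted p = 3.88e-10). For the region at 1800 kb the 3 h and imminent division libraries lay from 1.05 to 1.21, and both 10 h libraries below them. In all, 18 of 61 regions were called in this comparison, 9 in each direction, against 18.2% of all regions. The count was lower with flanks of 500 kb and higher with no fold threshold. Other called regions were the 4 from 500 to 200 kb upstream, which rose by 0.25 to 0.35. Those at 1100 and 1200 kb downstream, with -0.33 and -0.24, were called too.

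Compartments were read from the first principal component of the correlation matrix of chromosome 15 in 100 kb regions, positive for the A compartment, which holds more gene starts. Myc sat deep in A at each stage, and the window was mostly A. Of its 61 regions, 51 were positive in all 8 libraries, 8 were negative in all 8 and 2 had both signs. The negative ones were a stretch from 1700 to 1300 kb upstream and the end of the window from 2800 kb downstream, around Adcy8. The Myc region (chr15:61899878-61999847) had 1.02 and 1.02 at 3 h, 1.04 and 1.04 at 10 h and 1.06 and 1.06 at imminent division. The change from 10 h was 0.02 (adjusted p = 0.00527), small but beyond the spread of replicates, and it was gone at 250 kb, where it was -0.000596 (adjusted p = 0.909).

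From 10 h to imminent division 24 of the 61 regions were called, 11 higher and 13 lower, against 36.6% of all regions in either direction. The higher ones included Myc and the first 5 regions downstream, with 0.03 to 0.04 each, of which the first 4 overlap Pvt1. The lower ones included the 7 regions from 1000 to 1600 kb downstream, reaching -0.13 at 1500 kb (1.01 and 1.04 at 10 h, 0.89 and 0.89 at imminent division, adjusted p = 0.00365), and the 4 regions from 1100 to 800 kb upstream, reaching -0.24 at 900 kb (0.64 and 0.68 at 10 h, 0.38 and 0.45 at imminent division, adjusted p = 0.0111). The call at 900 kb upstream was lost without the second 10 h library (adjusted p = 0.0619) and the first imminent division library (0.0525). The count was 9 without the first 10 h library, 6 without the second and 15 without the second imminent division library. Between 3 h and 10 h 2 regions were called, against 3.95% of all, at 200 kb (0.02) and 2700 kb downstream (0.19). The count was 0 without the first 3 h library, either 10 h library or either imminent division library, 4 when the second 3 h library was left out and 1 without either pre-S library.

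**Figure D5:**
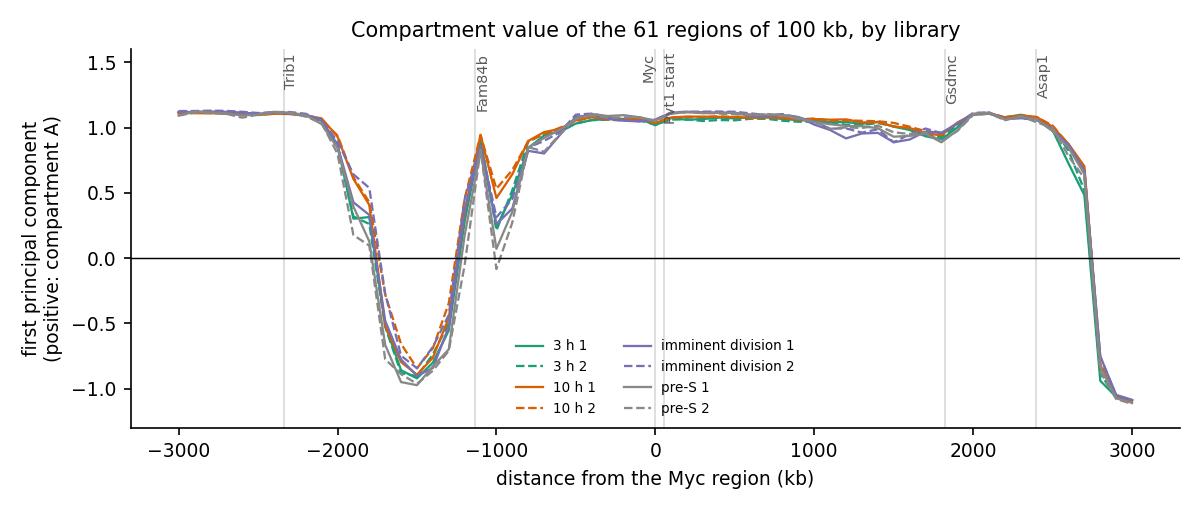
First principal component of the window's 61 regions of 100 kb by distance from the Myc region in kb, 1 line a library. All lines run near 1 over Myc and Pvt1 and below 0 from 1700 to 1300 kb upstream and from 2800 kb downstream.

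Whether the summed contact of the Myc bin fell with its single partners depended on the measure. Its plain window contacts, scaled to library size (CPM), were 40.3 and 37.7 at 3 h and 38.5 and 37.6 at 10 h. At imminent division they were 33.5 and 36.7, the lowest of these libraries, and these values carry no test. The offset-adjusted sum changed little. Promoter interactivity, the sum of the cis counts of a gene's bin over bin pairs above the usual level at their distance, was 12.04 and 12.004 at 3 h, 11.92 and 11.98 at 10 h, and 11.92 and 11.96 at imminent division on the offset-adjusted log2 scale. The 10 h and imminent division libraries overlapped, and both 3 h libraries lay just above them. The log2 changes by edgeR were -0.07 from 3 h to 10 h (SE 0.0361, adjusted p = 0.435) and -0.01 from 10 h to imminent division (SE 0.0349, adjusted p = 0.854). The bins with the most similar pattern of interactivity over the 6 libraries, out of 13078 compared, were those of Fmo9 (Pearson's r = 0.995), Cdk5rap1 (0.992), Unc79 (0.992) and Slc5a4b with Slc5a4a (0.991). With so small a range in Myc and so many bins to choose from, these are a description only.

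The other protein-coding genes of the window lie outside the Myc domain. Their 16 starts fall in 14 bins, all of which passed the count filter. From 3 h to 10 h none was called by edgeR, with 3 at an unadjusted p under 0.05, against 0.604% of all promoter bins. From 10 h to imminent division 5 bins lost interactivity and none gained, against 49.7% of all promoter bins in either direction. The change was -0.34 for Gsdmc3 (9.32 and 9.31 at 10 h, 8.85 and 9.08 at imminent division, adjusted p = 4.51e-05), -0.18 for Fam49b, whose product binds the GTPase RAC1 (adjusted p = 0.000249), -0.14 for Gsdmc with Gsdmc2, which share a bin (adjusted p = 0.0219), -0.14 for Gm21798 (adjusted p = 0.00957) and -0.11 for Mtss1, an actin-binding protein (adjusted p = 0.0180). Sqle of cholesterol synthesis, Washc5 with Nsmce2 in a shared bin, Trib1 (a pseudokinase), 4933412E24Rik, Fam84b, A1bg, Gsdmc4, Asap1 (a regulator of Arf GTPases) and Adcy8 (an adenylyl cyclase) were between -0.04 and 0.08 and were not called. With DESeq2 the bins of Mtss1, Gsdmc with Gsdmc2 and Gm21798 were not called, and when all cis counts were summed only the bin of Gsdmc with Gsdmc2 among the 5 was. The count of 5 became 2 when the second 10 h library was left out, and 3 when the first 10 h library or either imminent division library was.

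Genes around Myc in its pathway were drawn from 3 lists. Of the 13 bins of the Max network, the partners and antagonists of Myc, 5 gained interactivity from 10 h to imminent division and 1 lost it, or 46.2% called against the 49.7% above, with a median of 0.01 where that of all promoter bins was -0.00. Max itself, the obligate partner, rose from 10.99 and 11.08 at 10 h to 11.21 and 11.23 at imminent division (0.18, adjusted p = 0.000227). At 3 h it had 10.86 and 10.85, and the step to 10 h (0.18, adjusted p = 0.0292) was not called with TMM factors (0.0573), bin coverage (0.0615), DESeq2 (0.419) or the replicate block (0.0735), nor without the second 3 h library (0.216) or either 10 h library (0.0879 and 0.490). When all cis counts of the bin were summed, neither step of Max was called (0.03 and 0.04, adjusted p = 0.977 and 0.327). Mga, a large Max partner that represses, rose by 0.20 (adjusted p = 1.04e-05). The paralog Mycn rose by 0.16 (adjusted p = 0.00372), Mycl by 0.10 (0.0356) and the antagonist Mxi1 by 0.10 (0.0482), while Mlxipl, a glucose-responsive factor that pairs with Mlx, had -0.16 (0.000523). Mycl and Mxi1 missed the threshold with TMM factors, bin coverage and DESeq2. Mnt, Mxd1, Mxd3, Mxd4, Mlx, Mlxip and Zbtb17 were not called.

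Of genes for turnover and cofactors of the MYC protein, 4 of 5 were tested, since Huwe1 lies on X, and 2 were called (50%, against the same 49.7%). Fbxw7, the receptor of a ubiquitin ligase that marks MYC for breakdown, gained 0.16 (adjusted p = 0.000775), and Trrap, a scaffold of histone acetyltransferase complexes that MYC recruits, lost interactivity (-0.22, adjusted p = 7.67e-06). Kat5 and Usp28 were not called. The median was -0.05. Of 14 bins of known MYC targets, 3 gained and 3 lost interactivity (42.9% called, against the same 49.7%), with a median of -0.05. Nop58 (0.13), a box C/D nucleolar protein, Eif4e (0.12), the cap-binding factor, and Hspd1 (0.12), a mitochondrial chaperone, gained, and Fbl (-0.20), Cad (-0.12) and Ncl (-0.10), of rRNA modification, pyrimidine synthesis and the nucleolus, lost. With DESeq2 all of these targets but Fbl missed the threshold, and with bin coverage Nop58 (-0.08) and Cad (0.12) had the other sign, uncalled. The called members of the targets were 2 without either 10 h library, and those of the Max network 3 without the second. Between 3 h and 10 h 1 bin of the Max network was called by edgeR, that of Max (7.69% of 13), and none of the other lists, against the 0.604% of all promoter bins given above. Bins that hold several gene starts, such as those of Mlxipl, Hspd1 and Nop58, cannot be given to 1 gene.

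Pre-S cells, which carry the rearrangement, had lower values than 10 h for most partners of the Myc bin. Observed over expected contact was 19 and 12.7 at 1650 kb, 15.3 and 16.7 at 1700 kb, and 8.16 and 8.41 at 550 kb upstream. All 6 values lay below both 10 h libraries at the same partner. Against 10 h, 74 of the 88 tested partners were lower, with a median log2 change of -0.29, against -0.01 over all bin pairs. A single partner was called, at 200 kb in Pvt1, with raw counts of 146 and 183 at 10 h and 87 and 85 in pre-S (-0.60, SE 0.143, adjusted p = 0.0151), where 0.255% of all bin pairs were weaker and 0.339% stronger. The call was lost without either 10 h library (adjusted p = 0.120 and 0.151) or either pre-S library (0.398 and 0.0629), with DESeq2 (0.0619) and with offsets per distance class (0.111).

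In the window 29 pairs (0.558%) were weaker and 1 stronger in pre-S than at 10 h. With bin coverage in the offsets 0.404% were weaker, below the 0.514% of all bin pairs. Of the weaker ones 21 lay within the Myc domain (1.52% of its 1378) and 18 had an end in Pvt1 (2.80% of 643). Among the 64 pairs of Pvt1 with the bins from 1400 to 1750 kb 4 were weaker and 62 lower, with a median of -0.41. Of all bin pairs, 0.158% were weaker in pre-S with offsets per distance class, 0.05002% with DESeq2 and 0.541% with TMM factors. With offsets per distance class 8 pairs of the domain and 5 with an end in Pvt1 were weaker, with DESeq2 2 and 2, and with TMM factors 49 and 36. Leaving out any 1 of the 10 h and pre-S libraries gave 1 to 3 and 1 to 2. A further pair, the second by p, joined the bin 250 kb downstream, in Pvt1, with the bin at 1700 kb. Its observed over expected contact was 10.6 and 9.88 at 10 h and 4.05 and 5.89 in pre-S (-1.06, SE 0.237, adjusted p = 0.0073). Others joined the bin 50 kb upstream of Myc with the bin 250 kb downstream (-1.18, adjusted p = 0.00712) and the bin 50 kb downstream with that at 350 kb (-0.64, adjusted p = 0.0140). The stronger pair lay at 1500 and 1450 kb upstream (0.50, adjusted p = 0.0306). Each of these 4 calls was lost when either 10 h library or the first pre-S library was left out, and the last 2 also when the second was. With DESeq2 the pair of 250 and 1700 kb (adjusted p = 0.0953), that of 50 and 350 kb (0.0832) and the stronger pair (0.398) were not called. With offsets per distance class the pair of 50 and 350 kb (0.123) and the stronger pair (0.0669) were not called, and the stronger pair also not with TMM factors (0.196) or bin coverage (0.416). The count of 30 became lower when any 1 of the 10 h and pre-S libraries was left out, and higher without either 3 h library. Calls over all bin pairs moved the same way. The median log2 change of the window, -0.19 with all libraries, was -0.20 and -0.17 without the first and second 10 h library. It was -0.21 and -0.18 without the first and second pre-S library.

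The Myc domain had a pooled observed over expected contact of 2.05 and 1.97 in pre-S. Both lay below the 10 h libraries and within the range of imminent division. Insulation at Myc was 0.53 and 0.47, a change of -0.26 from 10 h (adjusted p = 0.00388). The bins from 600 kb upstream to 850 kb downstream all fell, and in the window 57 bins fell and 17 rose, against 20.7% and 37.5% of all bins. The counts of called bins were 37 and 48 without the first and second 10 h libraries and 41 and 48 without the first and second pre-S libraries, against 74 with all. The Myc region of the compartment component had 1.05 and 1.05 (0.02, adjusted p = 0.0169), a call lost without any 1 of the 10 h and pre-S libraries. In the window 29 regions were called, 7 higher and 22 lower, against 39.7% of all, and 11, 6, 12 and 8 without the 10 h and pre-S libraries in turn. The boundary ratio was called in 3 regions, against 4.82% of all, with those at 2100 and 2000 kb upstream lower and that at 900 kb upstream higher, a call lost without either 10 h library (adjusted p = 0.0692 and 0.0816) or the first pre-S library (0.163). The Myc bin's interactivity was 11.99 and 11.89 (-0.01, adjusted p = 0.827), but the change was called with TMM factors (-0.11, adjusted p = 0.0344) and with bin coverage (-0.16, adjusted p = 0.00686). Of the window's 15 promoter bins Fam84b (0.15) and Adcy8 (0.23) gained and Gsdmc3 (-0.27) lost, against 33.5% of all, though Gsdmc3 was not called with TMM factors, bin coverage or DESeq2 (adjusted p = 0.146, 0.497 and 0.399), and the count of 3 was 1 without the first pre-S library and 2 without either 10 h library. In the lists, against the same 33.5%, 1 bin of the Max network rose (Mycn, 0.24) and 1 fell (Mlxipl, -0.12), 1 of 4 turnover bins fell (Kat5, -0.16), and of the targets Nop58, Eif4e and Hspd1 rose and Ncl, Fbl and Odc1 fell.

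Imminent division and pre-S were both taken at 33 h. Of the partners of Myc none was called by edgeR or DESeq2, with 4 and 0 at an unadjusted p under 0.05, while 3 of 57 were called in bins of 100 kb. In the window 12 pairs were stronger at imminent division and none weaker, against 0.146% and 0.214% of all bin pairs. The direction depended on the scaling. With bin coverage in the offsets 15 were stronger and 47 weaker, 0.288% and 0.904% of the window's pairs against 0.781% and 0.910% of all. The median log2 change of the window was then -0.12 in place of 0.08. With TMM factors 13 were stronger and 10 weaker, 0.250% and 0.192% against 0.203% and 0.279% of all. With DESeq2 none was called. Of the 12 pairs of the main fit, 5 joined the bin at 1800 kb with the domain. The 53 tested pairs of that bin with the domain had a median of 0.46, with 5 lower. The first by p joined that bin with the bin 50 kb upstream of Myc, with 31 and 56 read pairs at imminent division and 8 and 11 in pre-S (1.54, SE 0.339, adjusted p = 0.00787). Others joined bins 900 and 50 kb upstream (2.13, adjusted p = 0.0108) and 950 and 250 kb upstream (2.09, adjusted p = 0.0159). None of these 3 calls held with DESeq2, without the second imminent division library or without the first pre-S library, the first was also not called with TMM factors (adjusted p = 0.0777), and the count of 12 was 1 without the second imminent division library, 0 without the first pre-S library and 1 without the second.

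The boundary ratio at 1800 kb was 0.71 and 0.55 in pre-S, near the 10 h values and below both imminent division libraries (0.50, adjusted p = 1.54e-06). At 900 kb upstream it was 1.39 and 1.33 in pre-S and 0.78 and 0.80 at imminent division (-0.57, adjusted p = 5.08e-08). In all, 5 regions were called, against 5.56% of all. The upstream insulation dip was -1.02 and -1.10 in pre-S, deeper than at imminent division by 0.40 (adjusted p = 0.00503, but 0.211 after division by bin coverage and 0.0587 and 0.0600 without the first and second pre-S library), within a run of 9 bins from 950 to 550 kb upstream that were all higher at imminent division. At the Myc bin the difference of -0.11 was not called (adjusted p = 0.208), but was -0.42 (adjusted p = 3.04e-06) when counts were first divided by bin coverage. In the window 19 bins were higher and 1 lower, against 8.36% and 1.94% of all. The count of 20 rested on single libraries, with 0 without either pre-S library, 8 and 5 without the first and second imminent division libraries, 9 without either 10 h library and 31 without either 3 h library. Compartment values differed in 9 regions, against 12% of all, and in 2, 3, 4 and 2 without the imminent division and pre-S libraries in turn. Interactivity differed in 4 promoter bins of the window, all lower at imminent division (Fam84b, Fam49b, Gm21798 and Adcy8), against 20.1% of all (1 or 2 without any 1 of the imminent division and pre-S libraries), and was not called for Myc (0.00, adjusted p = 0.957), though it was 0.12 with TMM factors (adjusted p = 0.0204) and with DESeq2 (0.0471). In the lists, against the same 20.1%, Mxi1 and Mga of the Max network and Kat5 were higher at imminent division, and Trrap and Npm1 lower.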

How the data were processed

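Reads were mapped by the authors to mm10 through the diffHic pipeline (cutadapt, bowtie2), and duplicates, dangling ends and overlong fragments were discarded. The deposited files hold raw counts of read pairs per pair of 50 kb bins, 1 symmetric matrix a library, with neither scaling nor coordinates. Bins were rebuilt here from the MboI fragments of GRCm38 by fragment midpoint, which gave 53357 bins, as in each matrix. The study's list of excluded regions was not used here. Instead 756 autosomal bins were left out (over 10% undetermined, or interchromosomal coverage over 4 times or under 1/4 of the median).

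Bin pairs needed a summed count of at least 10 and an abundance over 4-fold the interchromosomal background. Offsets came from loess fits, separate under 1.5 Mb. DIs, interactivity (bins with at least 200 counts, bin pairs above the distance curve by 2 mean absolute residuals) and boundary ratios (log2 CPM of at least 1) were tested with edgeR 4.0.16, insulation and compartments with limma 3.58.1, in R 4.3.3, over all 8 libraries in 4 groups, with Benjamini-Hochberg adjustment over all features and a threshold of 0.05. Alternatives included DESeq2 1.42.0, TMM, other offsets, bin sizes and filters, a replicate block and leaving out each library. The main fits of DIs, interactivity, boundary ratios, insulation and compartments were also run on simulated data with known changes. The other steps and the alternatives were not. P-values set the differences between groups against the spread of duplicate libraries, estimated over all 4 groups together. The read pairs carry no molecular identifiers, so they do not count molecules.

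The members, the lists and the tests were chosen with earlier results of these data known. Named were all window genes, every called partner of Myc, its 5 highest partners beyond 100 kb, the bins 1400 to 1900 kb downstream, the 3 called window pairs with the smallest p per direction and comparison, and the list members. In the likeness ranking the fifth bin is left out here.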

Additional observations from a re-analysis of the deposited data

Results flagged for a closer look

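Contacts joining 57.5 to 58.0 Mb with 70.25 to 70.75 Mb of chromosome 15 lie outside the window. They enter the compartment values of chromosome 15, and no comparison of the window is about them. They numbered 1018 in the first and 793 in the second pre-S library, against 22 to 65 in the other 6 libraries, which is what drew attention to them. The Myc window lies between the joined points, and the part of this joining in the pre-S values of the locus was not tested.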

How the results depend on the processing

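Interactivity of the Myc bin from 3 h to 10 h and from 10 h to imminent division kept its side of the threshold under each alternative, as did insulation at Myc in all but the last comparison. Counts moved more. The 122 DIs of imminent division versus 10 h became 318 with TMM, 369 with bin coverage in the offsets, 191 at 100 kb, 56 with offsets per distance class, 55 with DESeq2 and 22 over chromosome 15 alone, and 17 to 149 leaving out 1 library. The 1 partner of Myc became 13, 16, 6, 0, 3 and 0 in that order, 3 at 8-fold background, and 0 to 1. For pre-S versus 10 h, the 30 DIs became 73 (TMM), 56 (100 kb), 14 (distance class), 4 (DESeq2), 67 (8-fold) and 10 (chromosome 15), and 1 to 46, and the 1 partner 3 (TMM), 4 (coverage), 5 (100 kb), 2 (distance class), 2 (8-fold) and 0 (DESeq2), and 0 to 1. For imminent division versus pre-S, the 12 became 23 (TMM), 62 (coverage), 22 (100 kb) and 0 (DESeq2), and 0 to 18, and the 0 partners 3 at 100 kb. For 10 h versus 3 h, 0 became 3 at 100 kb and 1 with coverage or distance class, the 1 being the partner of Myc at 550 kb under distance class. Weaker pairs were 88.5% of the calls of imminent division versus 10 h, 64.3% with distance class and 100% with DESeq2, and 0% of those against pre-S, 43.5% with TMM and 75.8% with coverage.

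Boundary calls of 4, 18, 3 and 5 (10 h versus 3 h, imminent division and pre-S versus 10 h, imminent division versus pre-S) became 13, 38, 12 and 23 with no fold threshold and 1, 10, 0 and 3 with 500 kb flanks, and 0 to 4, 13 to 18, 2 to 3 and 3 to 6 leaving out 1 library. Insulation calls of 0 became 56 when coverage-balanced and 0 to 23, those of 81 ranged over 61 to 87, those of 74 over 37 to 78, and those of 20 became 9 with squares of 5 bins and 95 coverage-balanced, and 0 to 31. Compartment calls of 2 became 10 with quantile normalization and 1 without pre-S, and 0 to 4, those of 24 became 11 at 250 kb and 6 to 25, those of 29 became 19 and 6 to 25, and those of 9 ranged over 2 to 7. The window holds fewer regions of 250 kb than of 100 kb, so counts at these sizes have different bases. The change of the Myc region was -0.000596 at 250 kb, and that of its partner at 1700 kb -0.49 with TMM. Myc interactivity in pre-S versus 10 h was -0.11 with TMM and -0.16 with coverage, past the threshold, and -0.06 to 0.04. Against pre-S it was 0.12 with TMM and with DESeq2, and -0.04 to 0.06. The causes were not tested.

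Same-numbered libraries did not deviate together, with correlations of deviations from -0.21 to 0.05 over 6 group pairs. This cannot tell whether groups shared mice, cultures or batches, since the numbering may differ between groups. With a replicate block, insulation calls of imminent division versus pre-S were 6, compartment calls of 10 h versus 3 h 1, and the other counts stayed within 1.5 times (111, 25 and 11 DIs). Low counts limit single bin pairs at the far separations.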
